A study of Mus musculus with 9 samples.

Results

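The 40 genes described here code for the folding machinery of the endoplasmic reticulum (ER) and for the unfolded protein response that adjusts it. They were taken from a list of named genes and not by a cut on their values, but the list was chosen with earlier results of these data known. All 40 were found among the 56620 gene or locus rows of the deposited table. By role, 12 are chaperones of the ER lumen and lectin chaperones, 12 are disulfide and prolyl isomerase enzymes, 9 serve ER-associated degradation, 4 are stress sensors or their transcription factors, and 3 belong to the translocon. Of the 40, 39 reached a mean of 1 FPKM (fragments relative to transcript length and library size, the unit the authors deposited) and were tested among 13831 genes. Derl3, a factor that helps move misfolded proteins out of the ER, averaged 0.048 FPKM over the 9 libraries, with a highest value of 0.168, and was not tested.

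The study asked about the part of WNT5A, a secreted WNT ligand, in oxygen injury of the lung's small vessels. Mouse primary cells sold as pulmonary microvascular endothelial cells were kept for 48 h in room air with 21% O2 (RA), in hyperoxia with 85% O2 (HO), or in 85% O2 with 100 ng/ml recombinant WNT5A (HO-rWNT5A), with 3 libraries in each group. All groups shared the purchased cell stock, no group was given rWNT5A in room air, and no genotype, strain or age is stated in the sources used here. Whether libraries with the same treatment stem from separate cultures is not stated, and the p-values below speak only of the spread among libraries, part or all of which may be technical.

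The roughly estimated depth was 21300000 to 26500000 fragments per library. Among the libraries, HO replicate 3 had the lowest share of its FPKM in small RNA (20.1%, against 27.4% and 26.5% in HO replicates 1 and 2) and the highest share in retained-intron transcripts (7.09%). Most endothelial markers did not bear out the cell label, and 3 of 12 averaged at least 1 FPKM. Of 12 endothelial markers, 2 averaged at least 5 FPKM, Flt1 (37.9 ± 4.6, SD, n = 9) and Emcn (10.1 ± 1.1), while the defining junction genes Pecam1 and Cdh5 were at 0.093 and 0.054 FPKM. Of 10 pericyte and smooth muscle markers, 8 averaged at least 5 FPKM, with Acta2 at 1575 ± 142, and so did 4 of 8 fibroblast, 3 of 8 epithelial and 0 of 8 leukocyte markers. On the pericyte and smooth muscle list Myh11 (0.236) and Rgs5 (0.758) averaged below 1 FPKM. On the fibroblast list Pdgfra (0.66), Dcn (0.40), Lum (0.002) and Tcf21 (0.48) did too. Of 7 markers of plasma cells, which are rich in ER, Sdc1 alone passed 1 FPKM, and the defining genes Jchain, Mzb1 and Tnfrsf17 were at or near 0. The endothelial markers summed to 51.4 to 55.8 FPKM in RA, 48.8 to 55.9 in HO and 40.9 to 50.5 with rWNT5A. The pericyte and smooth muscle markers summed to 3036 to 3394, 2514 to 3410 and 2801 to 3216, and the plasma cell markers to 18.7 to 21.2, 22.4 to 27.7 and 19.95 to 20.9. The part of cell makeup in the results below was not tested. In bulk libraries like these, fewer cells of a type and less RNA per cell cannot be told apart.

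As background, proteins bound for secretion or for the cell surface enter the ER through the SEC61 translocon and fold there with the help of BiP (Hspa5), GRP94 (Hsp90b1), the lectin chaperones calnexin and calreticulin, and enzymes that form disulfide bonds. When unfolded proteins accumulate, the sensors IRE1 (Ern1), PERK (Eif2ak3) and ATF6 (Atf6) become active. IRE1 splices the Xbp1 mRNA, and PERK slows translation while favouring that of ATF4. Active ATF6 and XBP1 act on chaperone promoters through the ER stress response element (ERSE), where the factor NF-Y holds the CCAAT end.

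The ERSE was looked for in the 250 bases before the annotated start of each gene in RefSeq's promoter table (GRCm38.p6), which had an entry for 33 of the 40 members. It had none for Atf6, Derl1, Hspa13, Hyou1, Manf, Sec61a1 and Sil1. The starts in RefSeq can differ from those of the gene coordinates given below, which are from the GENCODE annotation. Part of the Hspa5 stretch below, with its motif, and the whole Pdia3 stretch lie inside the GENCODE span of their gene. The motif searched was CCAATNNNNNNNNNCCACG on both strands. It was present in 9 of the 33 members (27.3%) and in 37 of 32851 promoters of the genome (0.113%), or 35 of 27025 genes (0.13%). The 9 members were Calr, Canx, Creld2, Derl3, Dnajc3, Hsp90b1, Hspa5, Pdia6 and Syvn1. The promoters below are those of the 8 tested members with the motif. Of these genes Hspa5, Hsp90b1, Dnajc3 and Pdia6 fell in HO vs RA, and Calr, Creld2, Canx and Syvn1 did not pass in it. Xbp1, which fell too, and Fkbp11, which had the lowest estimate of any member, had no match and are not shown. Each is printed 5′ to 3′ on the strand of its gene with the motif in capitals, so that a match on the other strand reads from CGTGG to ATTGG. They lie at chr2:34771840-34772089 (plus strand) for Hspa5, chr10:86705513-86705676 (minus) for Hsp90b1, chr14:118937807-118937865 (plus) for Dnajc3, chr12:17266471-17266529 (plus) for Pdia6, chr8:84847055-84847113 (minus) for Calr, chr15:88819500-88819558 (plus) for Creld2, chr11:50325780-50325838 (minus) for Canx and chr19:6046512-6046570 (plus) for Syvn1.
Hspa5: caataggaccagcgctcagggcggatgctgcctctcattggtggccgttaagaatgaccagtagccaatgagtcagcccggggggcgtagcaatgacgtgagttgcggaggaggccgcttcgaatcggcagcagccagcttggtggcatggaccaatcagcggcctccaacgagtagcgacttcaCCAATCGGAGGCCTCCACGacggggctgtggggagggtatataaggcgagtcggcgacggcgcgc
Hsp90b1: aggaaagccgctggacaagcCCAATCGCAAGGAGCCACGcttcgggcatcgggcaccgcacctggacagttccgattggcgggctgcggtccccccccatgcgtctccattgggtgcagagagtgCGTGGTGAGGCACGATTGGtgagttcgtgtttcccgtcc
Dnajc3: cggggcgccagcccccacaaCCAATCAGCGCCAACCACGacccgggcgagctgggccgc
Pdia6: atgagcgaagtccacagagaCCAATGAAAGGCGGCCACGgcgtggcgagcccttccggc
Calr: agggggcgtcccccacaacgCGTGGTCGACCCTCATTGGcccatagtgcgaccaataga
Creld2: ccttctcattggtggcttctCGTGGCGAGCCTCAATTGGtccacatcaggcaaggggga
Canx: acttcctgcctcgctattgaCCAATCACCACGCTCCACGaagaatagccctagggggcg
Syvn1: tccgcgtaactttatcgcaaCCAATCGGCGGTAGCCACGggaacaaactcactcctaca

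The last base of the match lay 47 bases before the start in Hspa5, 194 and 89 bases before it in Hsp90b1, which had a match on each strand, and 26 bases before it in Syvn1. In the others it lay 80 (Pdia6), 87 (Dnajc3), 108 (Creld2), 127 (Canx) and 144 (Calr) bases before the start. Pdia4 (chr6:47813582-47813639, minus strand) held the motif without its last base, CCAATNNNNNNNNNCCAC. That shorter motif was in 13 of the 33 members and in 0.32% of promoters. Beside Pdia4 and the 9 members above, the 13 were Pdia3 (chr2:121413853-121413901, plus strand), Derl2 and Herpud1. Herpud1 (chr8:94386357-94386407, plus strand) held the related element ERSE-II, searched as ATTGG and CCACG with 1 base between them, which was in 1 of the 33 members and in 10 promoters of the genome (0.0304%). Pdia4, Pdia3 and Herpud1 are shown for comparison. Pdia4 passed the test in both comparisons with RA, Herpud1 passed in HO-rWNT5A vs RA alone, and Pdia3 and Derl2, with the shorter motif too, passed in no comparison.
Pdia4: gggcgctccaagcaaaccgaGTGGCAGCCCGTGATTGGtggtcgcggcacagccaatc
Pdia3: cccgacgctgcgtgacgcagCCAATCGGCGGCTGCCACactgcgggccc
Herpud1: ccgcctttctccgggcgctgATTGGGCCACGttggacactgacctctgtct

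A match is a description of these letters, not evidence that a factor bound there, and the 9 members with an ERSE also count among the 13 with the shorter motif. The ERSE is known as an element of chaperone promoters, so its higher share among the members is no result of these data. The core of the element that XBP1 prefers, TGACGTG, was in 3 of the 33 members (Hspa5, Txndc11 and Txndc5) and in 1.65% of promoters. The bare CCAAT box was in 24 of the 33 members and in 33.8% of promoters.

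The members covered a wide range of levels. In RA the most abundant per transcript length were P4hb, the beta subunit shared by protein disulfide isomerase and collagen prolyl hydroxylase (128 ± 7.4 FPKM, SD, n = 3), the lectin chaperones Canx (124 ± 2.4) and Calr (123 ± 5.2), and Pdia3, the isomerase that works with them (119 ± 2.3). Neighbours among these lay within their spread, and Hspa5 came next at 102 ± 2.1, a step larger than either SD. In HO the order was P4hb (125 ± 11), Canx (119 ± 2.1), Pdia3 (111 ± 5.6), Calr (99.0 ± 9.4), the ER cyclophilin Ppib (75.2 ± 12) and Hspa5 (74.5 ± 4.2), and the last 2 lay within their spread. The members lowest in level above the filter were the prolyl isomerases Fkbp2 (3.28 ± 0.99, SD over the 9 libraries) and Fkbp11 (3.70 ± 1.07). Summed over all 40, the members made 1434 to 1473 FPKM in the RA libraries, 1251 to 1357 in HO and 1257 to 1306 in HO-rWNT5A, and neither hyperoxic group overlapped with room air. Retained-intron transcripts made 4.07% to 4.18% of the members' FPKM in RA, 3.65% to 4.54% in HO and 4.19% to 4.75% in HO-rWNT5A. Their part in the results was not tested.

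The comparison of HO with RA asked which ER genes differed after 48 h of high oxygen. Of the 39 members tested, 6 fell and none rose (15.4% lower, against 0.788% lower and 1.19% higher among all genes tested). The genes that fell were the chaperones Hspa5, Hsp90b1 and Dnajc3, the disulfide isomerases Pdia4 and Pdia6, and the transcription factor gene Xbp1, each by 20.9% to 26.8% of its mean level in RA. The sensors and the degradation and translocon genes did not pass the test. The test was limma on log2(scaled FPKM + 1) with Benjamini-Hochberg adjustment over all 13831 genes and a threshold of 0.05. At an unadjusted p under 0.05 there were 11 members, all lower, against 8.77% of all genes lower and 9.43% higher at that p. The estimate was below 0 in 33 of the 39 members, against 51.8% of all genes, and the median log2 difference was -0.08, against -0.01 over all genes. In 13 members every HO library lay below every RA library, a pattern that 10.4% of all genes showed, and in 1 member, Derl2, every HO library lay above (11.1% of all genes).

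Hspa5 (chr2:34771970-34777547, plus strand), which codes for BiP, the main chaperone of the lumen and the keeper of the stress sensors, had 99.6, 102 and 104 scaled FPKM in RA replicates 1, 2 and 3, 75.5, 78.2 and 70.0 in HO, then 77.5, 74.4 and 74.3 in HO-rWNT5A. All 6 hyperoxic libraries lay below the lowest room-air library. The log2 difference of HO from RA was -0.45 ± 0.056 (SE; limma adjusted p = 0.0111). Hsp90b1 (chr10:86690209-86705509, minus strand), the ER member of the HSP90 family, had 86.8, 88.6 and 91.0 in RA, 70.7, 60.7 and 68.1 in HO, then 74.7, 69.0 and 69.9 in HO-rWNT5A, again with no overlap with room air. It fell by 0.41 ± 0.065 on the log2 scale (limma adjusted p = 0.0178). Dnajc3 (chr14:118937976-118981697, plus strand), a J-domain partner of BiP that also restrains PERK, was lower in level, with 11.9, 11.7 and 12.2 in RA, 9.75, 8.74 and 9.70 in HO, then 10.5, 9.79 and 9.68 in HO-rWNT5A. It fell by 0.32 ± 0.062 (limma adjusted p = 0.0344).

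The lectin chaperones bind the sugar chains of new glycoproteins, and both were among the most abundant members. Calr (chr8:84841850-84846934, minus strand), which codes for the soluble calreticulin, had 129, 121 and 119 in RA, 96.3, 109 and 91.3 in HO, then 91.7, 99.9 and 99.7 in HO-rWNT5A. Its HO libraries all lay below RA, but HO replicate 2 was closer to room air than the other two, and the log2 difference of -0.31 ± 0.074 did not pass (limma adjusted p = 0.0648). Canx, which codes for the membrane-bound calnexin, had 127, 123 and 123 in RA, 117, 121 and 121 in HO, then 120, 119 and 124 in HO-rWNT5A. Its difference of -0.06 ± 0.050 did not pass (limma adjusted p = 0.587), and its 95% interval ran from -0.17 to 0.05. The difference between these genes' changes was not tested.

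Other chaperones and their helpers did not pass. Hyou1, the large HSP70-like chaperone that serves as a nucleotide exchange factor for BiP, had 43.9, 42.0 and 43.9 in RA, 38.1, 43.9 and 38.6 in HO, then 39.7, 39.1 and 40.2 in HO-rWNT5A. HO replicate 2 was as high as room air, and the log2 difference was -0.11 with a 95% interval from -0.24 to 0.03. Dnajb9, a J-domain protein that directs BiP to IRE1, had 9.61, 8.65 and 9.12 in RA, 8.40, 8.39 and 8.97 in HO, then 9.38, 9.47 and 9.46 in HO-rWNT5A (difference -0.08, interval from -0.21 to 0.05). Manf, an ER-resident secreted survival factor, had 20.6, 23.0 and 24.0 in RA, 20.4, 19.2 and 22.4 in HO, then 21.1, 22.4 and 18.2 in HO-rWNT5A. Sdf2l1, which works with the J-domain protein of Dnajb11, had 4.78, 4.30 and 4.74 in RA, 4.53, 5.29 and 3.74 in HO, then 4.0, 3.43 and 3.81 in HO-rWNT5A. The groups RA and HO overlapped in all of these genes. Sil1, Hspa13 and Dnajb11 had log2 differences of -0.02 to 0.02.

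**Figure D1:**
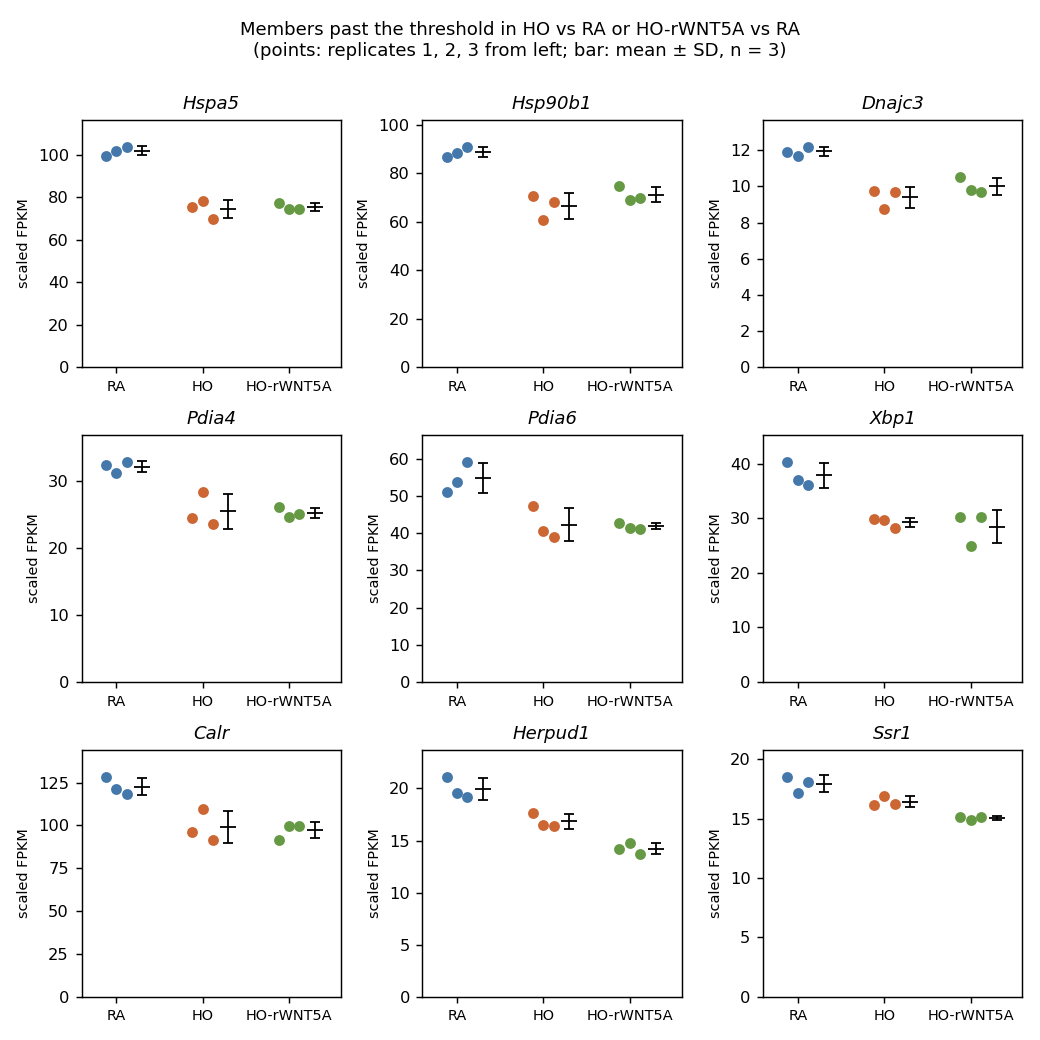
Scaled FPKM (vertical axes, from 0) in each library of RA, HO and HO-rWNT5A for the 9 members past the threshold in HO vs RA or in HO-rWNT5A vs RA; points are replicates 1, 2 and 3 from left to right and bars are mean ± SD (n = 3). Hspa5 lies between 70.0 and 78.2 in the 6 hyperoxic libraries and at 99.6 or more in room air. In Herpud1 and Ssr1 every HO-rWNT5A library lies below all others, but neither gene passed in HO-rWNT5A vs HO.

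Among the disulfide isomerases, Pdia4 (chr6:47796141-47813430, minus strand), also called ERp72, had 32.3, 31.2 and 32.8 in RA, 24.4, 28.3 and 23.5 in HO, then 26, 24.6 and 25.0 in HO-rWNT5A. It fell by 0.33 ± 0.069 on the log2 scale (limma adjusted p = 0.0434), with HO replicate 2 the nearest to room air. Pdia6 (chr12:17266545-17284770, plus strand), a partner of BiP that helps switch off IRE1, had 51.3, 54.0 and 59.3 in RA, 47.4, 40.8 and 38.9 in HO, then 42.8, 41.6 and 41.3 in HO-rWNT5A. It fell by 0.37 ± 0.078 (limma adjusted p = 0.0470). The most abundant isomerases were not among the genes that passed. P4hb had 137, 127 and 122 in RA, 124, 136 and 115 in HO, then 123, 118 and 116 in HO-rWNT5A, overlapping between all groups, with a difference of -0.04 and a 95% interval from -0.20 to 0.12. Pdia3 had 122, 118 and 117 in RA, 109, 118 and 107 in HO, then 106, 108 and 111 in HO-rWNT5A, with a difference of -0.10 (limma adjusted p = 0.385).

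The other 8 enzymes of this class all had log2 differences below 0 that did not pass. Fkbp11 had the lowest estimate of any member, -0.50 ± 0.17 (limma adjusted p = 0.153), with 3.37, 4.95 and 5.81 scaled FPKM in RA and 3.34, 2.83 and 2.80 in HO. Its RA libraries were spread widely, and RA replicate 1 lay just above HO replicate 1. Creld2, a disulfide isomerase induced by ER stress, had a difference of -0.30 ± 0.081 with every HO library below RA (limma adjusted p = 0.0952). Fkbp2 stood at -0.31 ± 0.17, and Ppib, Pdia5, Dnajc10, Txndc5 and Txndc11 between -0.14 and -0.02.

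The sensor genes gave no call, while the gene of the transcription factor that IRE1 activates did. Xbp1 (chr11:5520659-5525893, plus strand) had 40.4, 37.0 and 36.2 in RA, 29.9, 29.6 and 28.3 in HO, then 30.3, 25.0 and 30.1 in HO-rWNT5A, with no overlap with room air. It fell by 0.36 ± 0.078 on the log2 scale (limma adjusted p = 0.0482), just inside the threshold. Atf6 had 9.87, 9.32 and 10.1 in RA, 10.9, 10.3 and 9.92 in HO, then 10.9, 10.3 and 10.2 in HO-rWNT5A, a difference of 0.08 with a 95% interval from -0.05 to 0.21. For Ern1 the values were 7.76, 8.89 and 8.21 in RA, 7.86, 6.98 and 9.01 in HO, then 8.09, 7.68 and 7.78 in HO-rWNT5A, and its interval ran from -0.25 to 0.13. RA and HO overlapped in both. Eif2ak3 had 15.3, 15.5 and 16.5 in RA, 15.5, 16.0 and 16.4 in HO, then 17.8, 15.9 and 17.5 in HO-rWNT5A, with an interval from -0.12 to 0.14. These are mRNA levels, and the activity of a sensor was not measured.

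The splicing of Xbp1 by IRE1 removes 26 bases, and none of the introns of its 4 annotated transcripts had that length (the shortest was 300 bases). The table therefore does not separate the spliced form from the unspliced one. Its most abundant transcript averaged 24.3 ± 1.6 FPKM in RA, 20.2 ± 2.8 in HO and, with rWNT5A, 17.8 ± 1.6 (SD, n = 3 each). Hspa5 was carried by a pair of protein-coding transcripts. The larger averaged 80.8 ± 3.2 in RA, 58.3 ± 5.3 in HO and, with rWNT5A, 59.1 ± 3.2, and the smaller averaged 18.5 ± 1.6, 14.3 ± 0.79 and 14.2 ± 2.1. Of 77 transcripts of members tested among 26158 transcripts, 0 passed limma's adjusted threshold in any comparison (background 0.0153%, 0.0115% and 0.0382% in HO vs RA, HO-rWNT5A vs HO and HO-rWNT5A vs RA). At an unadjusted p under 0.05 there were 16, 4 and 17 of the 77, against 11.3%, 6.8% and 11.2% of all transcripts. Transcripts of a gene share most of their bases, so how the authors' assembly divided reads among them is uncertain.

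None of the 8 tested degradation genes passed in HO vs RA. Herpud1 (chr8:94386438-94395377, plus strand), a stress-induced membrane protein of the degradation complex, had 21.1, 19.6 and 19.2 in RA, 17.6, 16.5 and 16.4 in HO, then 14.2, 14.7 and 13.7 in HO-rWNT5A. The groups did not overlap at all, but the difference of HO from RA, -0.23 ± 0.058, missed the threshold (limma adjusted p = 0.0735). The other degradation genes lay between -0.09 (Sel1l, the scaffold of the complex) and 0.10 (Derl2), with the ubiquitin ligase Syvn1 at -0.00 and the mannosidase-like Edem1 at 0.06. Of the translocon genes, the pore subunits Sec61a1 (0.03) and Sec61b (-0.09) overlapped between RA and HO. Ssr1 (chr13:37966605-37994217, minus strand), a subunit of the translocon-associated protein complex, had 18.6, 17.2 and 18.1 in RA, 16.2, 17.0 and 16.2 in HO, then 15.2, 14.9 and 15.2 in HO-rWNT5A, a difference of -0.12 ± 0.052 of HO from RA (limma adjusted p = 0.264).

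The count of 6 depended on the libraries and on the scaling. Without RA replicate 1, 2 or 3 there were 1, 0 and 0 members past the threshold. Without any 1 HO library there were 4. Without HO replicate 1 or 3 these were all among the 6, and without HO replicate 2 they were Hspa5, Hsp90b1, Pdia4 and Calr, the last not among the 6. Without HO replicates 2 and 3 together there was 1, Hspa5. With equal totals 2 members passed, and 3 passed where the scaling factor was taken over all genes above 0 in every library. Of all genes tested, 30 were called lower and 26 higher with equal totals, and 89 lower and 158 higher with that factor. In the main fit these counts were 109 lower and 164 higher. For the fits with libraries left out, the counts over all genes are not given here. Of all the genes called in HO vs RA, 39.9% were lower, against 63.5% on the FPKM as deposited and 53.6% with equal totals. In each of these fits every member called was lower. Hspa5 passed in 20 of 22 alternatives and Hsp90b1 in 15, whereas Xbp1 passed in 8.

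**Figure D2:**
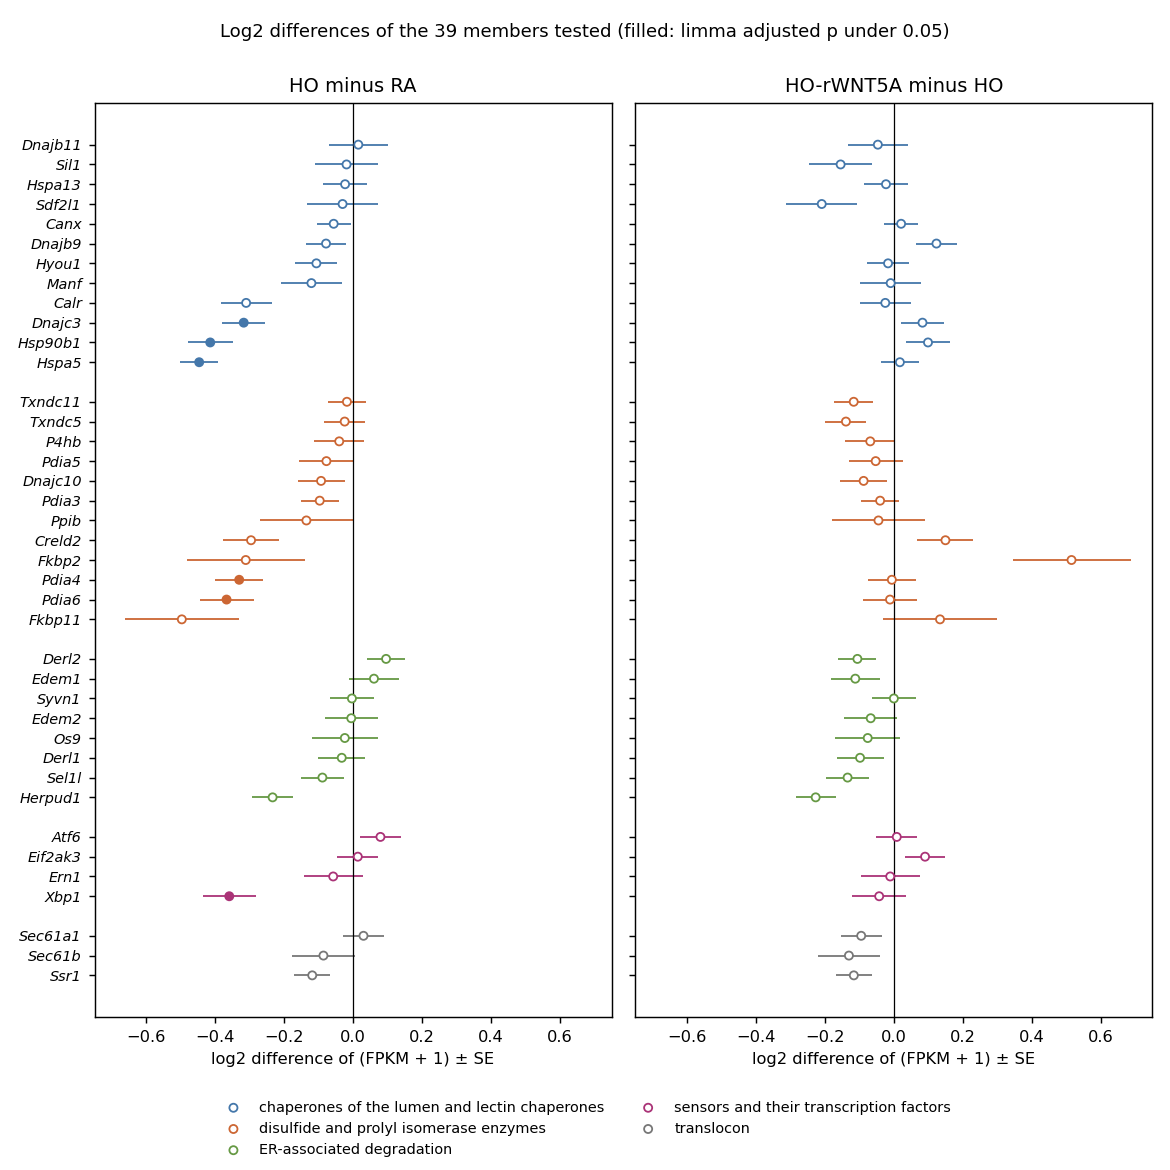
Log2 differences of (FPKM + 1) with their SE (horizontal axes) for the 39 members tested, by role, in HO minus RA (left) and HO-rWNT5A minus HO (right); filled points have a limma adjusted p under 0.05. On the left 6 points are filled, all below 0 and between -0.45 and -0.32, and on the right none is.

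Read against the promoter motif, the 8 tested members with an ERSE had a median log2 difference of HO from RA of -0.31, with a range from -0.45 to -0.00, and 4 of them fell (Hspa5, Hsp90b1, Dnajc3 and Pdia6). Calr and Creld2 were at -0.31 and -0.30 without passing, and Canx and Syvn1 at -0.06 and -0.00. The 24 tested members with a promoter entry and no ERSE had a median of -0.08, and 2 of them fell, Pdia4 and Xbp1. Outside the members, 5 tested genes had an ERSE (Adcy3, Alg12, Hnrnpa3, Pan2 and Zfp57), named because the set is small. Their median was -0.14, with a range from -0.30 to 0.09, and none passed. The 8935 other genes with an entry and no ERSE had a median of 0.00, and 59 of them (0.66%) fell. In HO-rWNT5A vs RA, which shares the room-air libraries, 4 of the 8 members with an ERSE and 4 of the 24 without one fell, with medians of -0.28 and -0.14, as did 1 of the 5 other genes with an ERSE (Adcy3) and 166 of the 8935 with none (1.86%). In HO-rWNT5A vs HO no gene of any of these sets passed, and the medians of the members with and without an ERSE were 0.02 and -0.07. These are descriptions of sets chosen with the values known, and no test of the sets was made.

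**Figure D3:**
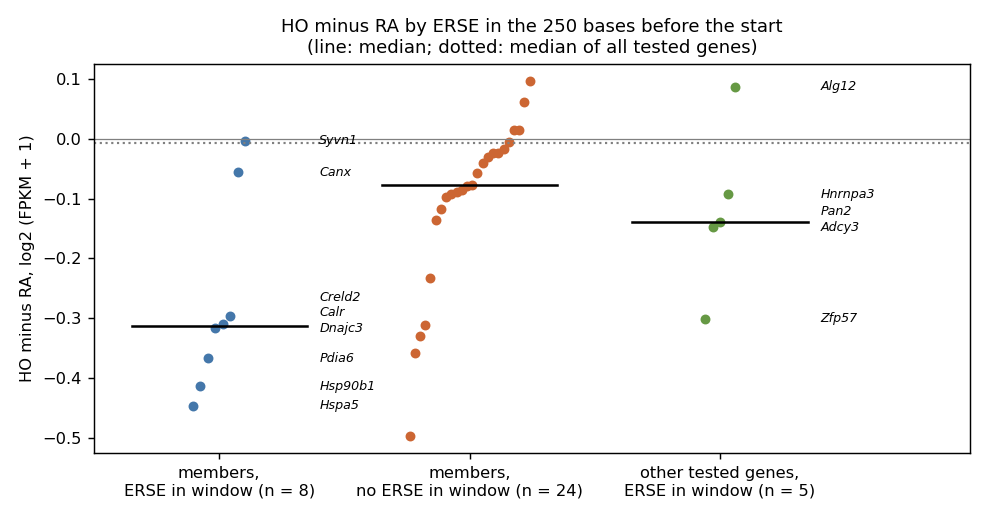
Log2 difference of HO from RA (vertical axis) for tested members with an ERSE in the 250 bases before the start (n = 8), members with a promoter entry and none (n = 24), and other tested genes with an ERSE (n = 5); black lines are medians and the dotted line is the median of all tested genes, -0.01. The 8 members with the motif have a median of -0.31, with Canx and Syvn1 standing near 0.

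The comparison of HO-rWNT5A with HO asked whether added WNT5A moved these genes under the same oxygen. None of the 39 members passed limma's adjusted threshold (0 of 39, against 0.00723% of all genes, which is 1 gene). At an unadjusted p under 0.05 there were 4 members, against 9.25% of all genes. Of these, Herpud1 (-0.23 ± 0.058, limma adjusted p = 0.486), Txndc5 (-0.14 ± 0.060) and Ssr1 (-0.12 ± 0.052) had lower estimates and Fkbp2 (0.52 ± 0.17) a higher one. Fkbp2 had 2.73, 2.30 and 2.37 scaled FPKM in HO and 5.02, 2.89 and 4.17 in HO-rWNT5A, which did not overlap, but its RA libraries at 2.78, 2.87 and 4.42 spanned most of that range. The estimate was below 0 in 29 of 39 members (48.7% of all genes), including all 8 tested degradation genes and all 3 translocon genes. The median was -0.04, against 0.00 over all genes. In 7 members every HO-rWNT5A library lay below every HO library (6.75% of all genes), and in 2, Dnajb9 and Fkbp2, every one lay above (6.31%). Among 130 tested secretory pathway genes outside the members, 93 had estimates below 0 and 37 above. In 21 of those 130 every HO-rWNT5A library lay below every HO library, and in 1 every one lay above.

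For the 6 genes that fell in hyperoxia, the differences of HO-rWNT5A from HO had intervals that held 0. The log2 difference was 0.02 for Hspa5, with a 95% interval from -0.11 to 0.14, and 0.10 for Hsp90b1, with an interval from -0.05 to 0.24. Dnajc3 stood at 0.08 (interval from -0.05 to 0.22) and Xbp1 at -0.04 (from -0.22 to 0.13). Pdia4 and Pdia6 were both at -0.01, with intervals from -0.16 to 0.15 and from -0.19 to 0.16. A p that misses the threshold does not show that rWNT5A left these genes unaltered. The intervals are for each gene alone, without adjustment over all genes, so they do not mark the smallest change the test could detect. Herpud1 had an interval from -0.36 to -0.10, which left out 0, and did not pass.

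The comparison of HO-rWNT5A with RA shares its room-air libraries with that of HO with RA, so it is no independent support for it. Here 8 of the 39 members fell and none rose (20.5% lower, against 1.92% lower and 2.42% higher among all genes). They were Herpud1 (-0.46 ± 0.058, limma adjusted p = 0.00463), Hspa5 (-0.43 ± 0.056, limma adjusted p = 0.00487) and Xbp1 (-0.40 ± 0.078, limma adjusted p = 0.0220), and with smaller differences Pdia6, Pdia4, Calr, Hsp90b1 and Ssr1. The last 5 ranged from -0.38 for Pdia6 to -0.23 for Ssr1, with limma adjusted p from 0.0270 to 0.0356. Dnajc3 (-0.23, limma adjusted p = 0.0604) and Sel1l (-0.22, limma adjusted p = 0.0683) missed the threshold. Side by side, the estimates of HO from RA and of HO-rWNT5A from RA were -0.23 and -0.46 for Herpud1, and the difference between them is the comparison of HO-rWNT5A with HO above, which did not pass.

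By role, 3 of 12 chaperones, 2 of 12 disulfide and prolyl isomerases, 1 of 8 degradation genes, 1 of 3 translocon genes and, of the 4 sensors and their transcription factors, Xbp1 fell in HO-rWNT5A vs RA. The sensor genes Atf6 (0.09), Ern1 (-0.07) and Eif2ak3 (0.10) did not pass. In 20 of the 39 members every HO-rWNT5A library lay below every RA library (51.3%, against 16.7% of all genes), and in 1, Atf6, every one lay above (16.2% of all genes). Among 130 tested secretory pathway genes outside the members, 43 lay below in this way (33.1%) and 13 above. These 43 held 8 of 16 collagen folding genes and 6 of 13 other thiol oxidoreductases of the ER. The estimate was below 0 in 35 members, against 51.3% of all genes, and the median was -0.13, against -0.00 over all genes. Without RA replicate 1, 2 or 3 there were 2 calls each, and without HO-rWNT5A replicate 1, 2 or 3 there were 3, 2 and 3. Herpud1 and Hspa5 passed in all 21 alternatives run.

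Other genes of the secretory pathway gave few calls. Of 131 such genes on 8 lists, 130 were tested, and in HO vs RA 3 fell and 2 rose (3.85% in either direction, against 1.97% of all genes). Their median was -0.01, the same as for all genes to that precision. Of the 5, 3 belong to the ATF4 and CHOP branch, which lies downstream of PERK and of other stress kinases. On that branch Trib3, a pseudokinase induced by ATF4 and CHOP, had 5.79, 5.75 and 6.78 scaled FPKM in RA and 3.31, 4.02 and 2.83 in HO, and fell by 0.70 ± 0.10 on the log2 scale (limma adjusted p = 0.0150). Ddit4, a stress-induced inhibitor of mTORC1, had 20.9, 20.8 and 19.3 in RA and 28.3, 33.7 and 27.4 in HO, and rose by 0.53 ± 0.078 (limma adjusted p = 0.0150). Atf3, a stress-induced transcription factor, had 2.80, 2.85 and 2.84 in RA and 4.89, 7.71 and 5.53 in HO, and rose by 0.86 ± 0.15 (limma adjusted p = 0.0215).

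The 2 genes that give the branch its name did not pass. Atf4 had 80.7, 82.1 and 88.7 in RA and 98.1, 104 and 89.2 in HO, with every HO library above RA (0.21 ± 0.069, limma adjusted p = 0.149). Ddit3, which codes for CHOP, had 26, 32.4 and 30.0 in RA and 29.7, 30.6 and 32.3 in HO and overlapped (0.07 ± 0.093, limma adjusted p = 0.733). Asns, the ATF4 target that makes asparagine, missed the threshold with -0.37 ± 0.083 (limma adjusted p = 0.0511). Of the branch's 14 genes 10 had an unadjusted p under 0.05, against 18.2% of all genes. Of these, 4 were lower and 6 higher, against 8.77% and 9.43% of all genes.

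On the export side, Lman1, the cargo receptor for coagulation factors also called ERGIC-53, had 27.9, 28.0 and 28.8 in RA and 24.5, 23.1 and 23.8 in HO and fell by 0.24 ± 0.048 (limma adjusted p = 0.0402). Sec24d, a cargo-binding subunit of the COPII coat, had 20.6, 18.7 and 18.7 in RA and 15.2, 16.1 and 14.3 in HO and fell by 0.33 ± 0.066 (limma adjusted p = 0.0373). None of the 20 signal peptide and translocation genes, 17 other degradation factors, 13 other thiol oxidoreductases, 16 collagen folding genes and the other regulators of the unfolded protein response passed in HO vs RA. The ER oxidase gene Ero1a was among them, with -0.11 (limma adjusted p = 0.475). Without any 1 RA library none of the 5 calls remained, and without HO replicate 3 there were 11 calls, 4 lower and 7 higher.

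**Figure D4:**
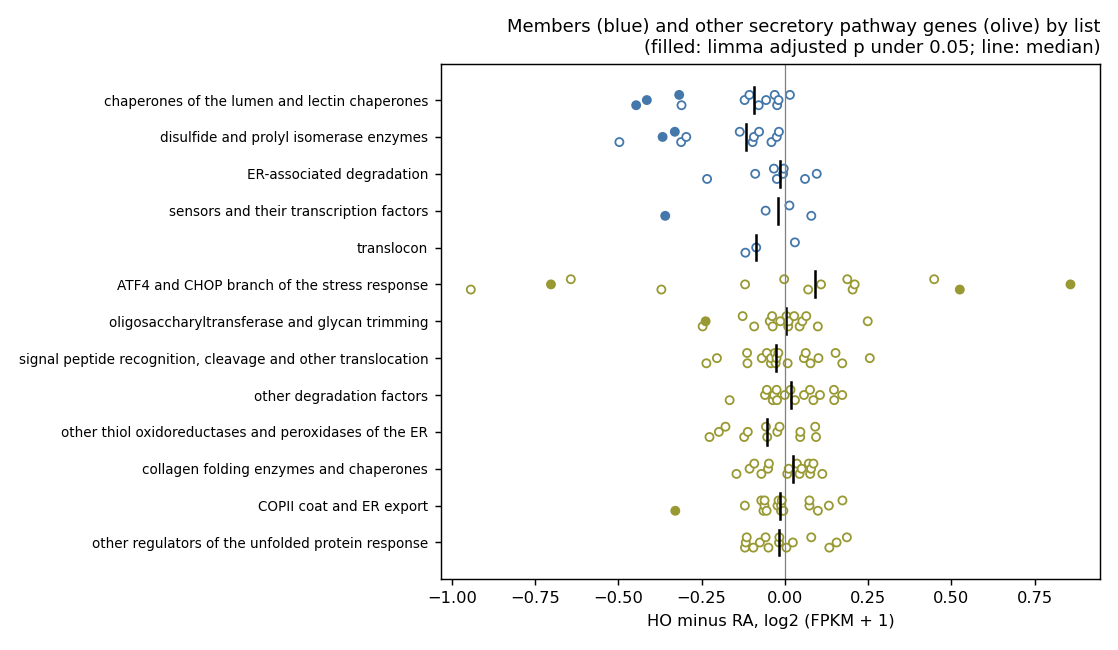
Log2 difference of HO from RA (horizontal axis) for tested members by role (blue) and for other secretory pathway genes by list (olive); filled points have a limma adjusted p under 0.05 and black lines are medians. The filled blue points all lie below 0, while the ATF4 and CHOP branch spreads from -0.94 to 0.86.

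With rWNT5A in hyperoxia none of the 130 passed against HO by limma's adjusted p, and 17 had an unadjusted p under 0.05 (9.25% of all genes), 16 of them lower (4.61% of all genes) and 1 higher (4.64%). All 16 collagen folding genes had estimates below 0, with a median of -0.07 (0.00 over all genes). Against RA, 6 fell and 3 rose (6.92% in either direction, against 4.35% of all genes). Those that fell were Trib3 (-0.90 ± 0.10), Asns (-0.52 ± 0.083), Stc2, Sec24d, Lman1 and Mbtps1, the gene of the protease that makes the first cut in ATF6 (-0.26 ± 0.059, limma adjusted p = 0.0361). Ddit4 (0.55 ± 0.078), Atf3 (0.71 ± 0.15) and Ppp1r15a, which codes for the phosphatase subunit that reverses the action of PERK (0.42 ± 0.077, limma adjusted p = 0.0194), rose. Stc2 (-0.44) and Ppp1r15a were named after their values were seen.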

How the data were processed

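RNA was measured in 9 libraries of 3 groups with 3 replicates each, and the deposited table gives FPKM for 143043 transcripts. Per the labels' protocols, the authors made total RNA libraries, trimmed paired reads with Skewer 0.2.2, aligned them to an Ensembl reference with STAR 2.5.3a, assembled and merged transcripts with StringTie 1.3.1, and set them against the annotation with gffcompare (0.9.9c). FastQC 0.11.2 and DESeq2 are named in the submitters' processing notes, which list hg38 and mm10 without a role. Mouse identifiers were found in GENCODE M21 (GRCm38, also called mm10) for 99.36% of Ensembl transcripts, and gene coordinates are from there.

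FPKM was summed per gene, and each library was divided by its median ratio to the geometric mean over genes of at least 1 FPKM in every library. That gene set, with the factors left uncentred (centring was also tried), was picked among 3 gene sets by matching the number of genes called in an earlier processing of these data, with the members' calls in view, and it gave more member calls in HO vs RA (6) than the other sets (5 and 3). The test was limma (3.58.1, R 4.3.3) on log2(scaled FPKM + 1) of genes averaging 1 FPKM or more. A single linear model held the 9 libraries, group contrasts were moderated with a mean-variance trend, and two-sided p-values were Benjamini-Hochberg adjusted with a threshold of 0.05. Log2 differences on this scale understate the change of low genes. With 3 libraries a side, the smallest p of an exact permutation test is 0.1. FPKM keeps no counts, which leaves out count tests, and depth was only roughly estimated, from the commonest product of FPKM and transcript length. The fit was tested on simulated data.

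The members and lists were chosen with earlier results of these data known. All 40 members could be named, with full values for those past the threshold, the sensors and 11 others, and of each other list up to 4 genes by smallest p, with Atf4, Ddit3, Trib3 and Ero1a among those given. Promoters are from RefSeq (GRCm38.p6); 33 of 40 members matched by symbol. Alternatives were pseudocounts of 0.1 and 5, other filters, other scalings, no variance trend, a robust variance, a replicate block, protein-coding transcripts alone, the 2 compared groups alone and each library left out. The protein-coding total, both other gene sets for the scaling factor and the joint removal of HO replicates 2 and 3 were added after seeing the data. Figures were drawn with matplotlib 3.10.9 in Python 3.11.15 (pandas 2.3.3, numpy 2.4.6).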

Additional observations from a re-analysis of the deposited data

How the results depend on the processing

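Every member called under any of the alternatives run was lower than RA, and no member passed in HO-rWNT5A vs HO under any of them. In HO-rWNT5A vs HO only 1 gene of all tested was called in the main fit and with each other scaling. The absence of member calls there therefore says little about the members. In HO vs RA the 6 member calls became 1 with no filter, 2 with equal totals, 3 with no variance trend, 1 with the 2 compared groups alone, 3 with the scaling factor over genes above 0 in every library and 1 without HO replicates 2 and 3 together; leaving out 1 library gave 0 to 4 (Calr was new without HO replicate 2). With the factor over genes that also average 1 FPKM there were 5, Xbp1 being lost. There were 7, Calr being added, on FPKM as deposited, with quantile normalization, with protein-coding transcripts alone and with the protein-coding total. Of all genes in HO vs RA, 179 were called lower and 103 higher on FPKM as deposited. These counts were 133 and 190 with quantile normalization, and 101 and 115 with the protein-coding total. In HO-rWNT5A vs RA the 8 became 3 with no filter and 5 with equal totals, and 2 to 3 with 1 library left out. That comparison gave 12 on FPKM as deposited, 11 with the compared groups alone, and 9 with quantile normalization or a filter of 5 FPKM. Of all genes in it, 615 were called lower and 209 higher on FPKM as deposited, against 266 and 335 in the main fit. These counts were 337 and 378 with quantile normalization, and 164 and 93 with equal totals. For alternatives other than the scalings, counts over all genes are not given here. For the other secretory pathway genes, the 5 calls in HO vs RA became 1 with no filter, 3 with no variance trend, 3 with the compared groups alone, 0 without HO replicates 2 and 3 together, and 0 to 11 with 1 library left out; the 9 in HO-rWNT5A vs RA became 3 with no filter, 20 on FPKM as deposited, 20 with the compared groups alone, and 3 to 5 with 1 library left out. With a replicate block the members called were 2 in HO vs RA, 0 in HO-rWNT5A vs HO and 4 in HO-rWNT5A vs RA, and the other genes 3, 0 and 8; the numbers share no stated source, for replicates 1, 2 and 3 the deviations of same-numbered libraries had r = -0.085, -0.005 and -0.06 in HO vs RA, 0.279, -0.118 and 0.129 in HO-rWNT5A vs HO, and 0.022, 0.118 and -0.024 in HO-rWNT5A vs RA, and the own number was best for replicates 1 and 3 of the second comparison and replicate 2 of the last. Over 2526 member values, 102 lost a call, 14 gained one, 0 called values changed sign, and 103 values past no threshold did, at a size of at most 0.13 on the log2 scale. The number of all genes called also changed with the scaling, and the causes of these changes were not tested.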
